A study of Mus musculus with 15 samples.

Results

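The genes described here encode 49 proteins of the complement and coagulation systems. They were taken from a fixed list of names rather than from measured values, and all 49 were found among the 37991 gene identifiers of the count table. By their main textbook source, 40 are made by hepatocytes, 6 by leukocytes (C1qa, C1qb, C1qc, Cfp, C3ar1 and C5ar1) and 3 largely by other cells (Cfd, F3 and Plat). A filter on low counts kept 48 of the 49 for testing and left out Cfd. In whole-liver RNA, fewer cells of a type and less RNA per cell cannot be told apart, and the libraries themselves do not show which cell made a transcript.

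Livers came from female mice on a C57BL/6 background, bred from parents heterozygous for S6K1 (ribosomal S6 kinase 1, encoded by Rps6kb1). Young WT livers came from mice of 90 days and old WT livers from mice of 600 days, both with intact S6K1. In the old KO group, also of 600 days, S6K1 was deleted in the whole body and not in the liver alone. No young KO livers were used, and genotype was therefore compared at 600 days alone. Each of the 15 libraries was 1 mouse, with 5 mice per group, and levels are given as CPM, the counts of a gene scaled to a common library total, as mean ± SD with n = 5 unless a single library is named.

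Total counts lay between 21801754 and 38065359, and replicates within a group correlated across genes at 0.972 to 0.991. Rps6kb1 was at 38.3 ± 3.14 CPM in young WT livers, at 38.4 ± 4.21 CPM in old WT livers and at 17 ± 2.23 CPM in old KO livers, with no overlap between the KO and WT libraries. The 7 hepatocyte markers that could be matched, albumin among them, summed to between 91100 and 157000 CPM in every library.

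Complement is a set of plasma proteins that tag microbes and dying cells. C1q and the mannose-binding lectins recognize a surface, the serine proteases bound to them cleave C4 and C2, C3 is then deposited, and C5 to C9 assemble into a membrane pore. Coagulation is a second protease cascade that ends in thrombin, which turns fibrinogen into fibrin, while antithrombin, heparin cofactor II and the protein C system restrain it and plasmin dissolves the clot. The liver parenchyma supplies most of these proteins to blood, whereas C1q, properdin and the receptors for C3a and C5a are made mainly by macrophages and other myeloid cells, in the liver largely the resident Kupffer cells.

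RefSeq promoter sequences (GRCm38.p6, 250 bases before to 50 bases after the start) could be matched for 36 of the 49 members, and 15 short strings were searched on both strands. The 2 strings shown were picked after all had been searched. AGGAAGT, an ETS-family type of site such as the myeloid factor PU.1 binds, was found in 9.57% of 27025 promoters, in 3 of 5 leukocyte-made members (C1qb, C1qc and C5ar1) and in 1 of 29 hepatocyte-made members (Masp2). GTTAAT, part of the site of the hepatocyte factor HNF1, was found in 7.2% of all promoters, in 10 of 29 hepatocyte-made members and in 1 of 5 leukocyte-made members (Cfp). Neither string contains the other, and a match describes letters only. The promoters of 5 members are shown, 5′ to 3′ on the strand of the gene. C1qb and C1qc are 2 of the 4 members called lower for genotype. Of the other called members, C1qa had no matched promoter, and Cfp carried GTTAAT but not AGGAAGT. Fga, Fgb and Hc are hepatocyte-made genes on either side of the age threshold. Capitals mark the match, in each case on the strand opposite to the gene (ACTTCCT for AGGAAGT and ATTAAC for GTTAAT).
C1qb (chr4:136886151-136886450, minus strand): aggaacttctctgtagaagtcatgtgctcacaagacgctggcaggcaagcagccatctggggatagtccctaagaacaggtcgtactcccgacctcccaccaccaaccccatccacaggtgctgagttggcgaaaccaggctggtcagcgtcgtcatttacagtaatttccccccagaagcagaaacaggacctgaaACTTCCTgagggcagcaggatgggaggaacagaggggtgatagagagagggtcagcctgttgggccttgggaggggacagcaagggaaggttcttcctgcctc
C1qc (chr4:136892865-136893164, minus strand): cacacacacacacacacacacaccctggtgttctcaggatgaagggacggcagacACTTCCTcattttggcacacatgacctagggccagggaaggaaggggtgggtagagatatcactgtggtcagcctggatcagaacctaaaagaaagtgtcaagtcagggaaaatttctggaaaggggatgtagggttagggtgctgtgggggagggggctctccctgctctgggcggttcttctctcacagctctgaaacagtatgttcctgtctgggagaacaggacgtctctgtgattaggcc
Fga (chr3:83025903-83026202, plus strand): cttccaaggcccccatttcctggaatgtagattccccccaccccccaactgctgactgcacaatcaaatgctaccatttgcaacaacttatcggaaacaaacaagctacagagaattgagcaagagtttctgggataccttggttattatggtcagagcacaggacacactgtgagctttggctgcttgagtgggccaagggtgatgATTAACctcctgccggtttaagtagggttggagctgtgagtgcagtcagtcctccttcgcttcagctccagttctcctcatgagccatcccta
Fgb (chr3:83049814-83050113, minus strand): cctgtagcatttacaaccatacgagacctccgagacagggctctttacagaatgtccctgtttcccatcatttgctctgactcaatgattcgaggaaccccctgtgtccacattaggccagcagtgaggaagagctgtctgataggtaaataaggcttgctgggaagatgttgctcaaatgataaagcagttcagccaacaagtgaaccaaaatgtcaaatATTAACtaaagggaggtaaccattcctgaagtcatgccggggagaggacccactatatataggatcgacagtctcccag
Hc (chr2:35061363-35061662, minus strand): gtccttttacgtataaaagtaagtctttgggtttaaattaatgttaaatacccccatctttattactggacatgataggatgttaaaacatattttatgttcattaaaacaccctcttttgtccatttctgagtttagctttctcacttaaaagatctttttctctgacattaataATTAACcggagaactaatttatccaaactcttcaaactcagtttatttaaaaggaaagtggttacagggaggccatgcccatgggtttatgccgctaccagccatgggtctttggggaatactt
The match begins 53 bases before the start in C1qb, 195 in C1qc, 43 in Fga, 29 in Fgb and 74 in Hc.

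Together the members took 3.55% to 4.24% of all counts in young WT livers, with 4.54% to 4.79% in old WT livers and 4.25% to 5.23% in old KO livers. Per kilobase of exon, the fibrinogen beta chain Fgb (rank 23 of 14231 genes), the central complement component C3 (28) and the fibrinogen chains Fgg (35) and Fga (36) were the most abundant members. Of the 48, 8 stood within the first 100 ranks, 26 within 500 and 29 within 1000. The leukocyte-made genes were far lower than Fgb (2690 CPM per kilobase over all 15 libraries) and C3 (2250). On this scale C1qa was at a mean of 30.8, C1qb at 29.8, C1qc at 15, Cfp at 11.8, C3ar1 at 0.874 and C5ar1 at 0.362. C1qa (rank 1359) and C1qb (rank 1395) nonetheless stood above several hepatocyte-made members, from C8a (26.5) down to Cfb (0.827). C5ar1 lay below every hepatocyte-made member. Among the hepatocyte-made genes the spread over libraries was narrow for F5 and Serpinc1, whose highest library was 1.3 and 1.32 times the lowest, and wide for C6 (5.77 times), C8a (8.78 times) and C8b (11.1 times).

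**Figure D1:**
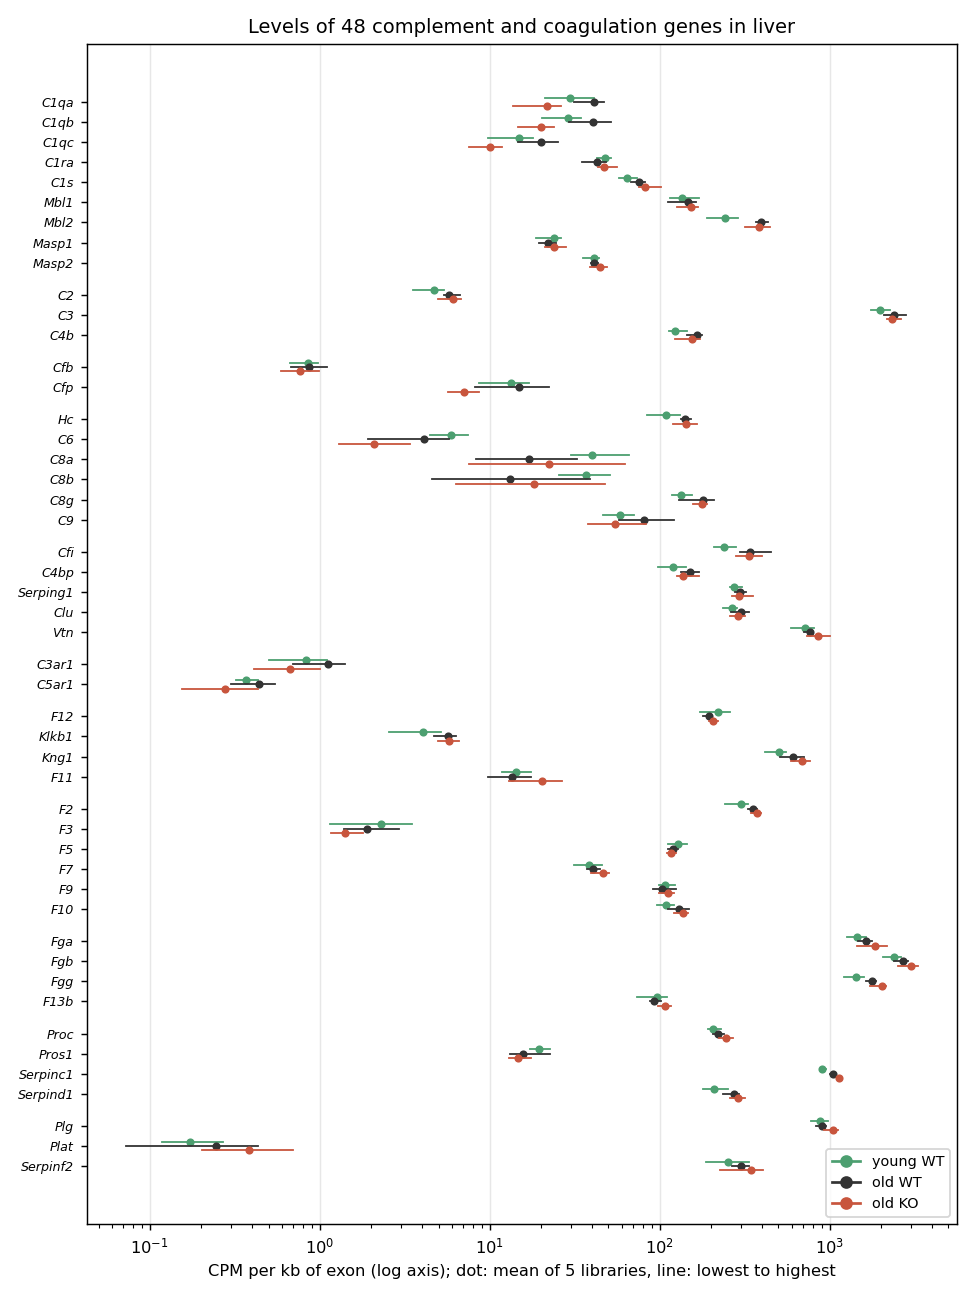
Levels of the 48 tested members in CPM per kilobase of exon on a log axis, with a dot for the mean of 5 libraries and a line from the lowest to the highest, in green for young WT, black for old WT and red for old KO. Fgb, C3, Fgg and Fga lie furthest right and the leukocyte-made C3ar1 and C5ar1 near the left edge, and the lines of C8a and C8b are the longest among the hepatocyte-made genes.

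The comparison of old with young WT livers asks what age does to these genes. Of the 48 members 9 rose and 0 fell, at an adjusted p under 0.05 in edgeR, all 9 of them among the 40 hepatocyte-made genes. The largest rise was that of Mbl2, a lectin that recognizes microbial sugars (log2 fold change 0.71 ± 0.118 SE), followed by Cfi, Klkb1, C8g, C4b, Hc, Serpind1, Fgg and Serpinc1, down to 0.21. Over all 14258 genes, 18.8% were called, 9.92% as higher and 8.91% as lower, so that 9 of 48 (18.8%) is the background share, with all of the calls in 1 direction. The median log2 fold change of the 48 members was 0.20, with 36 fitted above 0 and 12 below, beside a median of 0.01 over all genes. At an unadjusted p under 0.05 there were 22 of the 48 members, beside 4705 of all 14258 genes. DESeq2 called 14 members as higher and 0 as lower, and its share over all genes is not given here for any comparison. In 7 members every old WT library lay above every young one and in 0 below, beside 11.4% of all genes with groups apart in either direction. The count fell to 5 when young WT 1, young WT 2, old WT 4 or old WT 10 was left out, and Mbl2, C4b, C8g, Cfi and Serpind1 passed with any of the 15 libraries left out. The 7 hepatocyte markers had a median of -0.21 with age, 2 of them lower (Apoa1 and Cps1) and 0 higher, and their part in these rises was not tested.

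**Figure D2:**
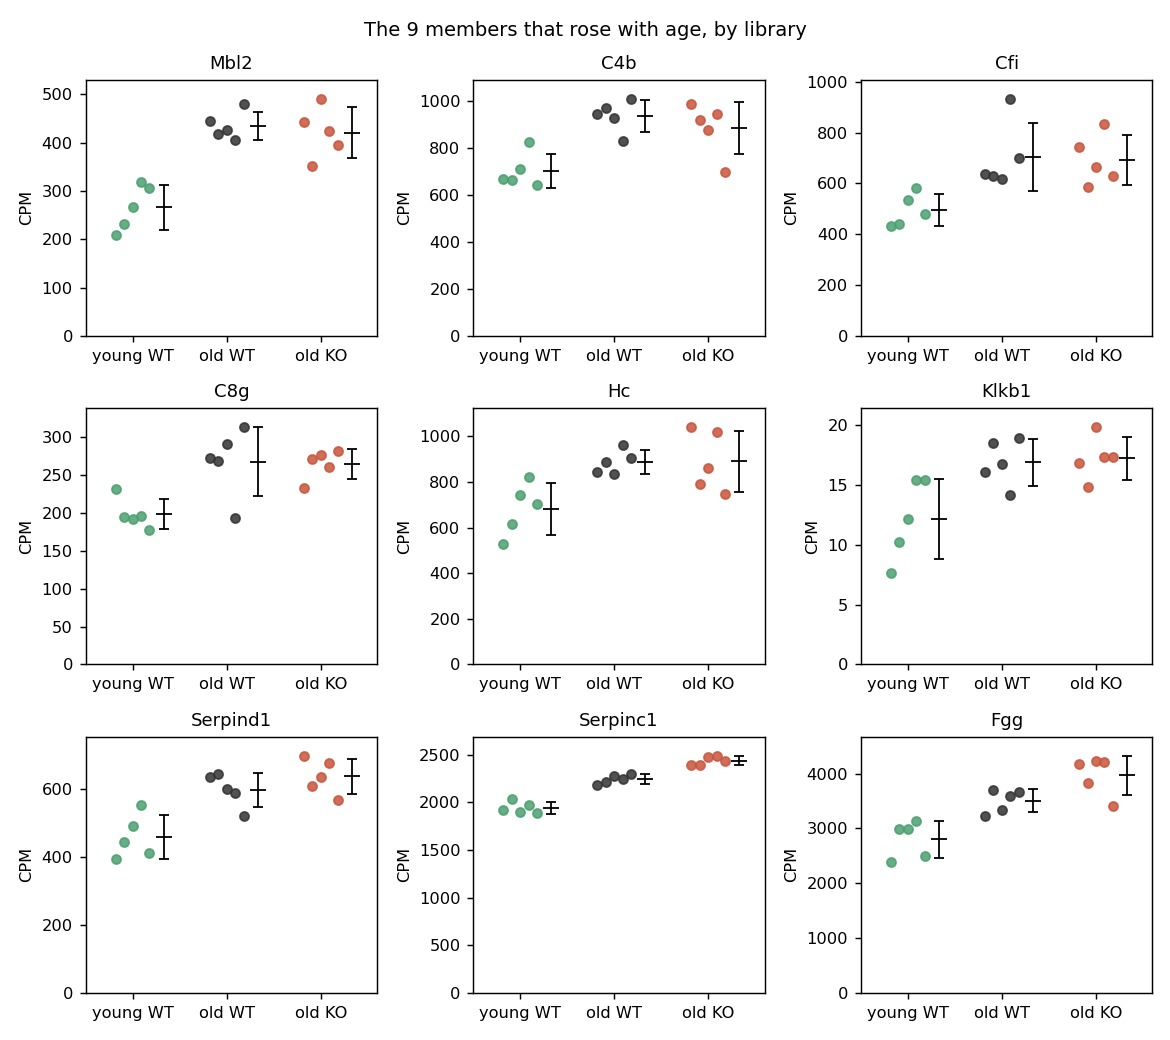
CPM of the 9 members that rose with age, 1 dot per library and mean ± SD beside each group of 5, on linear axes from 0. Old WT and old KO dots lie at similar heights for Mbl2, Cfi, C8g and Klkb1, and the 3 groups of Serpinc1 do not overlap.

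Of the 9 genes of C1 and lectin initiation 1 rose (Mbl2), and of C2, C3 and C4b 1 rose (C4b). Mbl2 stood at 210, 232, 267, 318 and 307 CPM in young WT livers 1, 2, 3, 4 and 6 and at 445, 418, 426, 406 and 480 CPM in old WT livers 1, 4, 5, 7 and 10. All 5 old livers exceeded the highest young one, and the mean went from 267 ± 46.7 to 435 ± 28.8 (adjusted p = 0.00129). Mbl1, the other mannose-binding lectin, was at 125 ± 21.9 and 136 ± 18.4 CPM and did not pass (0.12 ± 0.125, adjusted p = 0.546), and the lectin-bound proteases Masp1 and Masp2 were fitted at -0.12 and 0.01. C4b, the substrate of these proteases, was at 670, 663, 711, 827 and 643 CPM in young WT and 947, 971, 929, 828 and 1010 CPM in old WT livers. The groups did not overlap, although the highest young liver (827) and the lowest old one (828) nearly met, and C4b rose (0.42 ± 0.103, adjusted p = 0.0117). C3, onto which both routes converge, went from 10200 ± 978 to 12300 ± 1590 CPM without passing (0.27 ± 0.115, adjusted p = 0.109), and neither did C2 (0.28, adjusted p = 0.0939), C1s (0.23, 0.129) or C1ra (-0.16, 0.283). C2 had all 5 old WT livers above all 5 young ones, at 14.4 to 21.8 CPM when young and 21.9 to 27.3 CPM when old.

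Of the complement regulators, Cfi rose and 4 others did not pass. Cfi, the protease that inactivates C3b and C4b, was at 432, 441, 536, 581 and 481 CPM in young WT and 638, 630, 616, 933 and 700 CPM in old WT livers (0.51 ± 0.132, adjusted p = 0.0149). The groups were apart, and old WT 7 stood well above the other 4 old livers. C4bp, a cofactor of factor I, was fitted at 0.34 (adjusted p = 0.0585), Clu at 0.18, and Serping1 (the C1 inhibitor) and Vtn at 0.10.

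The terminal components did not move together. Hc, the gene of C5, rose from 683 ± 114 to 887 ± 51.9 CPM (0.38 ± 0.122, adjusted p = 0.0411) with the groups apart, and C8g, the lipocalin chain of C8, rose from 198 ± 19.8 to 268 ± 45.3 CPM (0.43 ± 0.113, adjusted p = 0.0151) with 4 of 5 old livers above every young one. Its partner chains had fitted changes of opposite sign. C8a was at 109, 131, 121, 241 and 124 CPM in young WT, 63.2, 30.1, 68.6, 118 and 30.1 CPM in old WT and 29.2, 77.8, 27.4, 228 and 44.2 CPM in old KO livers 1, 2, 4, 5 and 6. C8b was at 65.1, 101, 96.3, 130 and 78.6 CPM in young WT, 19.2, 11.7, 26.1, 98.6 and 12.4 CPM in old WT and 28.1, 40.6, 16.1, 121 and 24.9 CPM in old KO livers. For both genes the same library stood highest in each group, young WT 4, old WT 7 and old KO 5, and 4 of 5 old WT livers lay below every young liver. Neither passed with age (C8a -1.23 ± 0.528, adjusted p = 0.115, and C8b -1.49 ± 0.586, adjusted p = 0.0862).

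Whether C8a and C8b passed depended on single libraries and on the method. With limma voom C8b was called lower with age (-1.96, adjusted p = 0.018), and with only the 10 libraries compared C8a was (-1.24, adjusted p = 0.0381). Without old WT 7, C8b was called lower with age (-2.43, adjusted p = 0.00387) and C8a stayed just short (-1.59, adjusted p = 0.054), and without old KO 5, which enters the shared estimate of spread, both were called (C8a -1.22, adjusted p = 0.0385, and C8b -1.48, adjusted p = 0.0494). C8a and C8b lie 11130 bases apart on chromosome 4 and point toward each other, while C8g lies on chromosome 2. C6 was at 23.8 ± 5.59 CPM in young and 16.5 ± 6.2 CPM in old WT livers (-0.53 ± 0.273, adjusted p = 0.186), and C9, the pore-forming subunit, at 150 ± 26.9 and 207 ± 62.8 CPM (0.46 ± 0.224, adjusted p = 0.16).

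**Figure D3:**
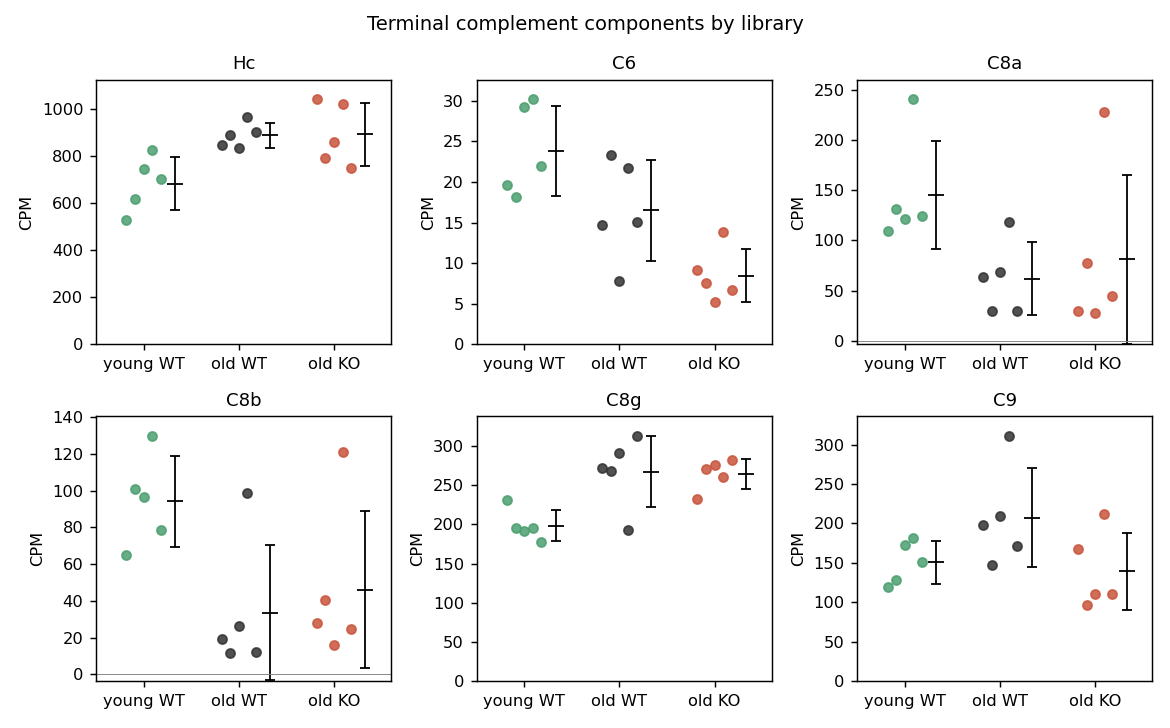
CPM of the 6 terminal complement components, 1 dot per library with mean ± SD beside each group of 5, on linear axes. C8a and C8b show 1 high library in each group, the mean of C6 is 23.8, 16.5 and 8.47 CPM in the 3 groups, and the SD bars of C8a in old KO and of C8b in old WT livers cross 0.

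In coagulation and fibrinolysis the risers were Klkb1, Fgg, Serpinc1 and Serpind1. Klkb1, which encodes plasma prekallikrein of the contact system, was at 7.63, 10.2, 12.1, 15.4 and 15.4 CPM in young WT and 16.1, 18.5, 16.7, 14.1 and 18.9 CPM in old WT livers (0.48 ± 0.159, adjusted p = 0.0463). Only old WT 7 fell inside the young range. The neighboring F11 was fitted at -0.09 and F12 at -0.19, neither past the threshold, and Kng1, the kininogen, at 0.26 (adjusted p = 0.123). None of the 6 procoagulant enzymes and cofactors passed, with F10 (0.25, adjusted p = 0.0684) and F2, the gene of prothrombin (0.23, adjusted p = 0.087), nearest to the threshold, and F5, F7 and F9 fitted at -0.11, 0.08 and -0.04.

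The 3 fibrinogen chains share a locus on chromosome 3 (82811781 to 82853725, NCBIM37), and their fitted changes with age were 0.17 for Fga, 0.18 for Fgb and 0.32 for Fgg. Fgg was at 2390, 2990, 2980, 3140 and 2500 CPM in young WT and 3230, 3700, 3330, 3590 and 3660 CPM in old WT livers. These groups were apart and Fgg rose (± 0.102, adjusted p = 0.0377), while Fga (adjusted p = 0.323) and Fgb (adjusted p = 0.243) overlapped between ages. Per kilobase, the ratio of Fgg to Fga lay between 0.956 and 1.01 in young WT livers, between 1.06 and 1.12 in old WT livers and between 0.982 and 1.19 in old KO livers, and that of Fgb to Fga between 1.52 and 1.73 in all libraries. These ratios were chosen after the values had been seen and carry no test.

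Among the anticoagulants, Serpinc1 (antithrombin) and Serpind1 (heparin cofactor II) rose. Serpinc1 was at 1920, 2040, 1900, 1970 and 1890 CPM in young WT, 2180, 2210, 2280, 2250 and 2300 CPM in old WT and 2390, 2390, 2480, 2490 and 2430 CPM in old KO livers. No library of one group reached into another, although the step with age was small (0.21 ± 0.0702, adjusted p = 0.0484) and was lost whichever of the 15 libraries was left out. Serpind1 went from 457 ± 64.7 to 596 ± 48.9 CPM (0.38 ± 0.101, adjusted p = 0.0167), with 4 of 5 old livers above every young one. Proc (0.10, adjusted p = 0.398) and Pros1, which encodes the cofactor protein S (-0.31 ± 0.138, adjusted p = 0.124), did not pass, and without old WT 7 Pros1 was called lower (-0.48, adjusted p = 0.00493). Of the genes of fibrinolysis, Plg (plasminogen) was fitted at 0.04 and its inhibitor Serpinf2 at 0.25 (adjusted p = 0.294). F13b, the carrier chain of factor XIII, belongs to fibrin formation and was fitted at -0.06.

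All 6 leukocyte-made members had fitted age changes above 0, with a median of 0.44, and 0 of 6 passed in edgeR. At an unadjusted p under 0.05 there were 3 of the 6, beside 4705 of all 14258 genes. DESeq2 called 1, C1qb (0.48, adjusted p = 0.0394). C1qa went from 30.9 ± 8.75 to 42.6 ± 6.11 CPM (adjusted p = 0.0995), C1qb from 31.4 ± 7.06 to 44.2 ± 8.85 CPM (adjusted p = 0.0575) and C1qc from 28.7 ± 7.13 to 38.6 ± 7.82 CPM (adjusted p = 0.113). Young and old ranges overlapped for each. Macrophage markers summed to 383 ± 129 CPM in young and 470 ± 131 CPM in old WT livers. Of these 12 markers 9 were fitted above 0 and 3 below (median 0.33), and the only 1 called, Cd163, was lower. Monocyte and neutrophil markers summed to 45.3 ± 15.4 and 84.9 ± 18.6 CPM, and the part of either list in these values was not tested.

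The comparison of old KO with old WT livers asks what loss of S6K1 does at 600 days. Of the 48 members 4 fell and 0 rose, and all 4 were leukocyte-made: C1qa, C1qb and C1qc, the 3 chains of C1q that start the classical pathway, and Cfp, which encodes properdin, the stabilizer of the alternative pathway convertase. Each was near 2-fold lower (log2 fold change -0.91 to -1.08). Over all 14258 genes 0.533% were called, 0.112% as higher and 0.421% as lower, beside 8.33% of the members. At an unadjusted p under 0.05 there were 10 of the 48 members, beside 1661 of all 14258 genes. Among the 40 hepatocyte-made members 0 were called in edgeR, 4 were under this unadjusted p, and DESeq2 called 2. Their median log2 fold change was 0.10, beside 0.00 over all genes, and that of the 6 leukocyte-made members was -0.95. The 7 hepatocyte markers had a genotype median of 0.23, with 6 fitted above 0, 1 below and 0 called. The part of these markers in the values of hepatocyte-made members was not tested.

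C1qa was at 44.7, 48.7, 32.6, 41.9 and 45.3 CPM in old WT livers 1, 4, 5, 7 and 10 and at 27.4, 23.8, 21.1, 26.5 and 14.3 CPM in old KO livers 1, 2, 4, 5 and 6 (-0.91 ± 0.193, adjusted p = 0.0459). C1qb was at 45, 56.4, 32, 41.2 and 46.3 CPM in old WT and 26.1, 22, 19.4, 25 and 16 CPM in old KO livers (-1.02 ± 0.175, adjusted p = 0.0223). C1qc was at 41.9, 48.9, 28.2, 34.4 and 39.5 CPM in old WT and 22.1, 21.2, 16.4, 22.8 and 14.5 CPM in old KO livers (-0.99 ± 0.184, adjusted p = 0.029). For all 3 chains every KO liver lay below every WT liver, with old WT 5 the lowest WT library and old KO 6 the lowest of all, and groups stood apart in 3.2% of all genes. The 3 genes lie in a row on the minus strand of chromosome 4 (136436044 to 136454718, NCBIM37), 3616 and 2851 bases from each other. Their shares of the C1q sum stayed within 31.1% to 37.8% for C1qa, 31.6% to 36.6% for C1qb and 28.7% to 32.8% for C1qc in all 15 libraries.

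Cfp was at 27.9, 38.9, 14.3, 25.1 and 23.7 CPM in old WT and 11.9, 15.1, 11.7, 12.8 and 9.84 CPM in old KO livers (-1.08 ± 0.223, adjusted p = 0.0452). The ranges overlapped through old WT 5, which stood below old KO 2. The receptors C3ar1 (4.82 ± 1.14 to 2.89 ± 0.999 CPM, adjusted p = 0.266) and C5ar1 (1.13 ± 0.283 to 0.712 ± 0.316 CPM, adjusted p = 0.333) were fitted at -0.73 and -0.67 and did not pass. The 4 calls were close to the threshold: the count was 0 without old WT 1, old WT 4, old KO 2, old KO 4 or old KO 6, 1 without old WT 10 or old KO 5, and 2 without young WT 4 or old WT 7. It was 1 (C1qb) with limma voom, and C1qa was not called under relative log expression scaling.

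Macrophage markers moved with these 4 genes. All 12 Kupffer cell and macrophage markers were fitted below 0 in old KO against old WT livers (median -1.18), and 4 were called: Clec4f (-1.27, adjusted p = 0.0292), Cd5l (-1.47, adjusted p = 0.0247), Cd68 (-1.18, adjusted p = 0.0384) and Vsig4 (-1.19, adjusted p = 0.0484). Their summed level was 292 to 650 CPM in old WT livers against 175 to 265 CPM in old KO livers. For every 100 CPM of these markers there were 24.5 ± 2.88 CPM of C1q in young WT livers, against 27.3 ± 3.07 CPM in old WT livers and 28.3 ± 2.24 CPM in old KO livers, and 6.27 ± 0.878, 5.45 ± 0.497 and 5.52 ± 0.638 CPM of Cfp. The 4 pan-leukocyte markers summed to 42.6 to 65.2 CPM in old WT livers against 21.9 to 42.6 CPM in old KO livers. None of the 4 was called in edgeR, and all 4 were under an unadjusted p of 0.05, beside 1661 of all 14258 genes. DESeq2 called 2 of them, and the part of either list in the result was not tested.

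**Figure D4:**
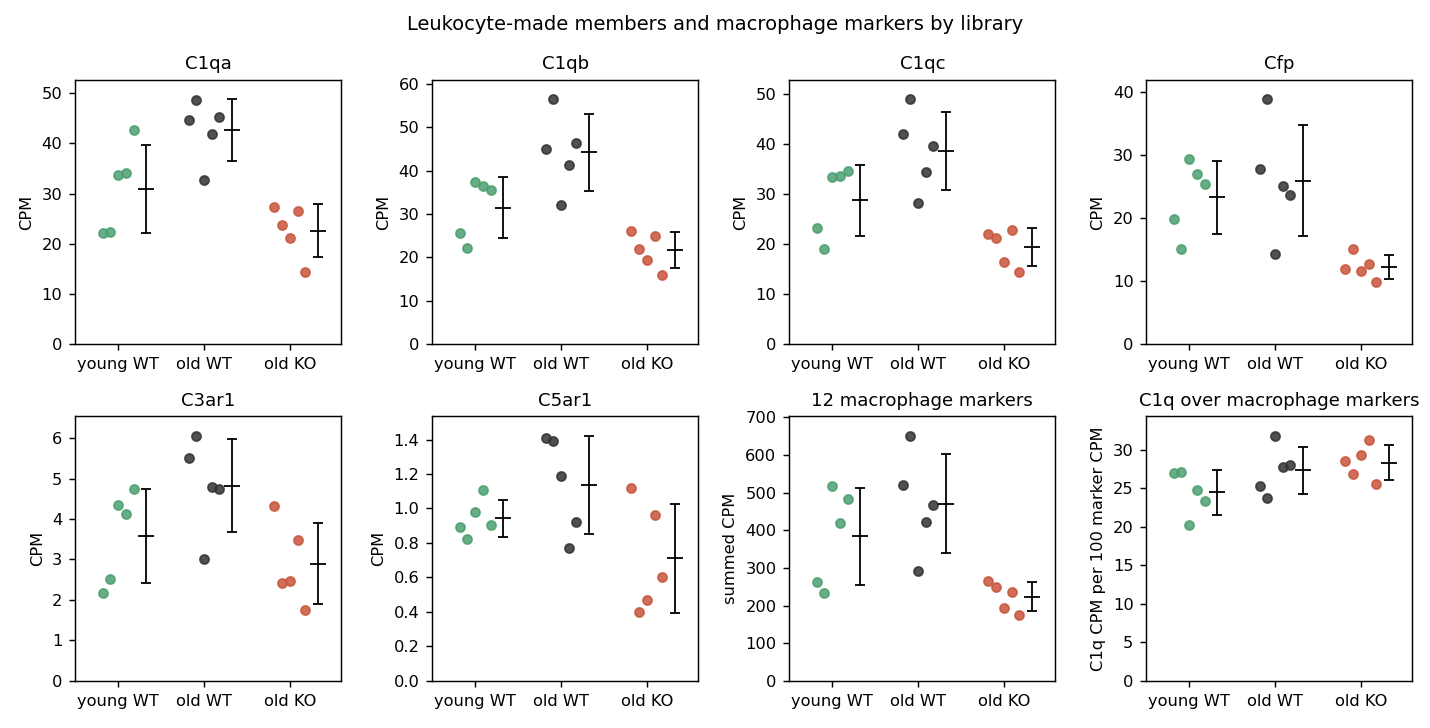
The 6 leukocyte-made members in CPM, the summed CPM of 12 macrophage markers, and C1q CPM for every 100 CPM of those markers, 1 dot per library with mean ± SD beside each group of 5, on linear axes from 0. C1qa, C1qb and C1qc are lowest in old KO livers without overlap with old WT, the marker sum is lower too, and the ratio of C1q to markers lies between 20.2 and 31.8 in all 15 libraries.

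Members listed as hepatocyte-made showed fitted genotype changes from -0.96 (C6) to 0.58 (F11), 27 above 0 and 13 below. After C6 the lowest was C9, at -0.58. C6 was at 14.7, 23.3, 7.78, 21.7 and 15.1 CPM in old WT and 9.14, 7.55, 5.23, 13.8 and 6.64 CPM in old KO livers. Of the 5 KO livers 3 lay below every WT liver, and C6 did not pass (-0.96 ± 0.282, adjusted p = 0.157), though DESeq2 called it (adjusted p = 0.0353). Among old WT livers, C6 and the macrophage marker sum were both highest in old WT 4 and lowest in old WT 5. Among old KO livers, C6 was highest in old KO 5 and the sum in old KO 1. The part of macrophages in the C6 values was not tested. F11 was at 30.3 ± 7.19 CPM in old WT and 45.3 ± 10.9 CPM in old KO livers, with 4 of 5 KO livers above every WT one (0.58 ± 0.186, adjusted p = 0.194). Serpinc1 was the only member whose KO livers all lay above the WT ones (0.12 ± 0.0702, adjusted p = 0.545), and DESeq2 called it too (adjusted p = 0.0332). The 9 age risers had fitted genotype changes between -0.08 and 0.18, and 0 of the 9 were called in edgeR. Mbl2 (421 ± 52 CPM in old KO livers), Cfi (692 ± 97.7 CPM), C4b (885 ± 112 CPM), C8g (264 ± 19.1 CPM), Hc (890 ± 131 CPM) and Klkb1 (17.2 ± 1.79 CPM) were fitted between -0.08 and 0.03. Serpind1 (636 ± 52.2 CPM) was fitted at 0.09, Serpinc1 (2440 ± 47 CPM) at 0.12 and Fgg (3970 ± 355 CPM, 4 of 5 KO livers above every WT one) at 0.18 (adjusted p = 0.523).

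**Figure D5:**
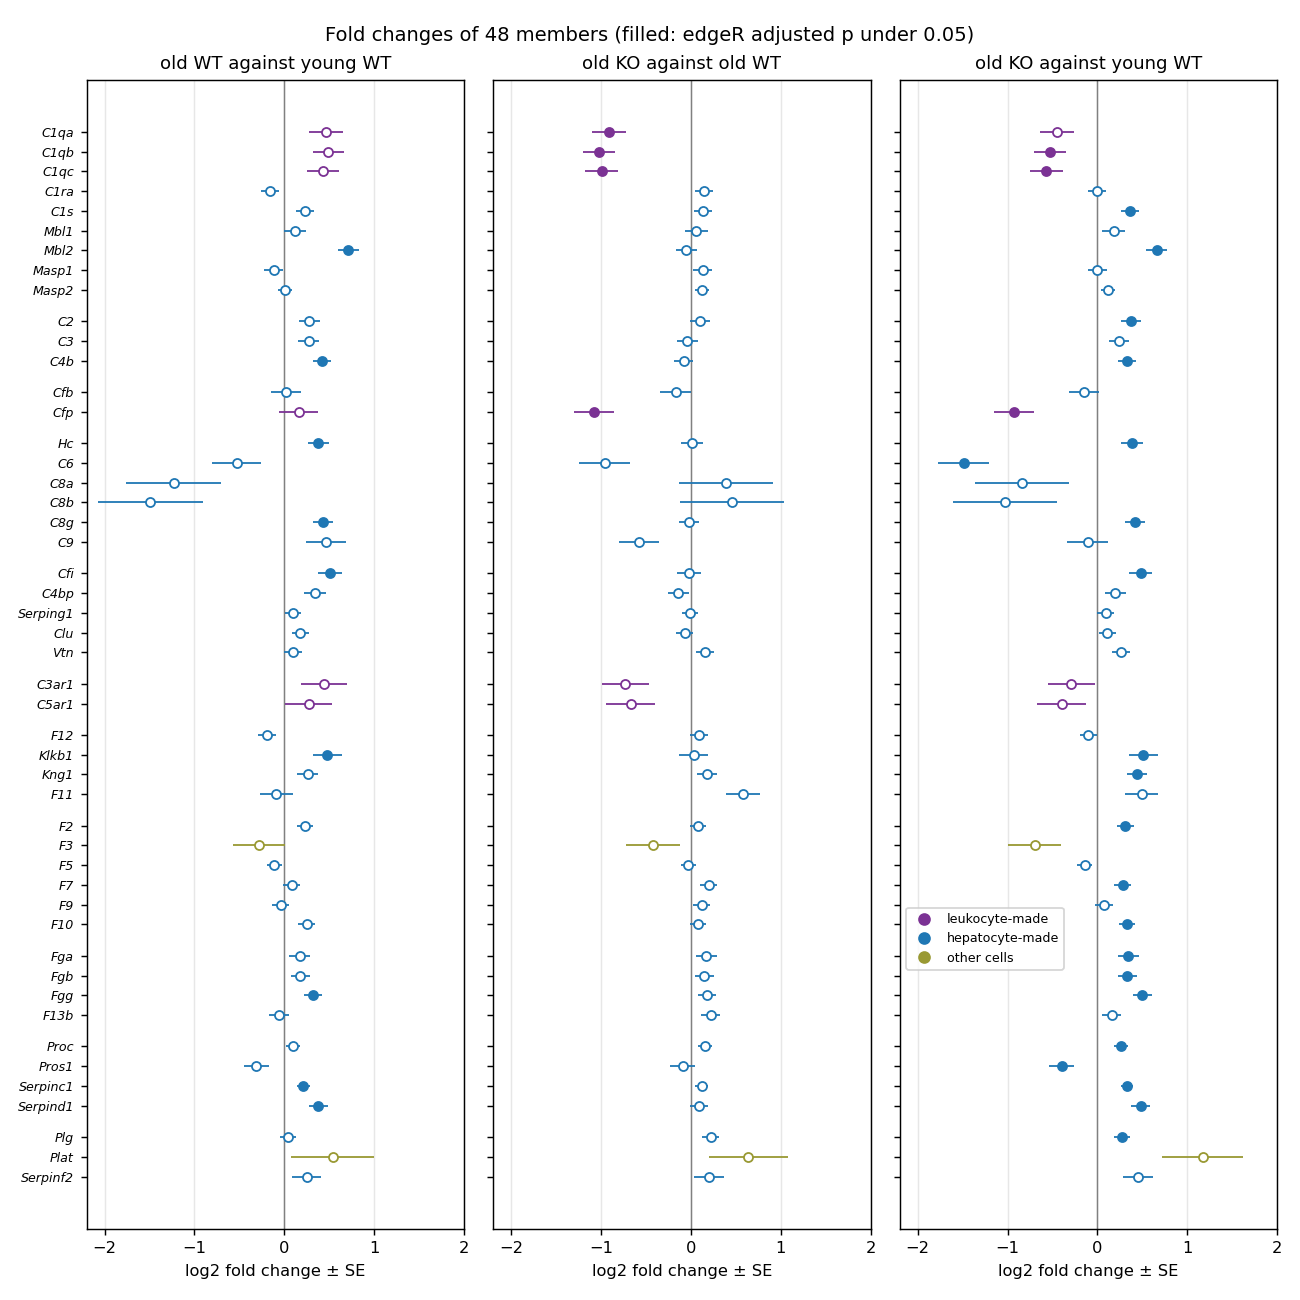
Log2 fold changes ± SE of the 48 tested members in the 3 comparisons, filled where the edgeR adjusted p was under 0.05, in purple for leukocyte-made, blue for hepatocyte-made and olive for genes of other cells, grouped by role from C1 at the top to fibrinolysis at the bottom. Filled points are blue and to the right for age (9), purple and to the left for genotype (4), and of both kinds for old KO against young WT (24).

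Old KO livers were also set against young WT livers, a comparison that shares its libraries with the 2 above. Of the 48 members 24 were called, 19 higher and 5 lower, beside 23.3% of all genes (12% higher and 11.3% lower). All 19 that rose were listed as hepatocyte-made. Of the 5 that fell, 3 were listed as leukocyte-made (Cfp, C1qb and C1qc) and 2 as hepatocyte-made (C6 and Pros1). These sources are textbook ones, and the cell that made each transcript was not measured. Of the 12 macrophage markers 6 were called lower in the same comparison (Clec4f, Cd5l, Timd4, Csf1r, Cd163 and Mertk, median of the list -0.69), with sums of 234 to 518 CPM in young WT livers against 175 to 265 CPM in old KO livers, and their part in the falls was not tested. The median was 0.22 over the 48 members and -0.01 over all genes, and 10 members had every old KO liver above every young one and 1 below, beside 13.9% of all genes with groups apart. The number called was 14 without young WT 1, 15 without young WT 3 or old KO 5, and 11 without old KO 4.

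Fibrinogen and its regulators were among those that rose. Fga (0.34, adjusted p = 0.0436), Fgb (0.33, adjusted p = 0.0312) and Fgg (0.50, adjusted p = 0.00293) were called together, and the 3 chains summed to 11000 ± 1110 CPM in young WT livers, to 12700 ± 927 CPM in old WT livers and to 14300 ± 1680 CPM in old KO livers. F2 (0.31), F10 (0.33), F7 (0.28), which encodes the partner of tissue factor, Klkb1 (0.51, adjusted p = 0.0313), Kng1 (0.44), Proc (0.26), Serpinc1 (0.33), Serpind1 (0.48) and Plg (0.27) were called as well. With 1 library left out, Fgg, Kng1, Serpinc1 and Serpind1 were called in all 15 fits. Fgb was called in 11 of these fits, Fga in 5, and F7 and Plg in 4 each. In complement, Mbl2 (0.66), Cfi (0.48), C8g (0.42), Hc (0.38), C2 (0.37), C1s (0.36) and C4b (0.33) rose.

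C6 had the largest change in this comparison and the only fall without overlap. It stood at 19.6, 18.1, 29.3, 30.2 and 22 CPM in young WT livers, and its mean was 23.8 ± 5.59 CPM there against 8.47 ± 3.3 CPM in old KO livers (-1.49 ± 0.283, adjusted p = 0.00194). The highest old KO value, 13.8 CPM in old KO 5, lay below the lowest young one. Pros1 fell from 79.2 ± 8.59 to 59.9 ± 7.89 CPM (-0.40 ± 0.138, adjusted p = 0.045), Cfp from 23.3 ± 5.8 to 12.3 ± 1.9 CPM (-0.93 ± 0.222, adjusted p = 0.00766), C1qc by 0.57 (adjusted p = 0.0361) and C1qb by 0.53 (adjusted p = 0.0373) on the log2 scale. C8a (-0.84, adjusted p = 0.261) and C8b (-1.03, adjusted p = 0.209) did not pass, but without old KO 5 both were called lower (C8a -1.70, adjusted p = 0.0124, and C8b -1.78, adjusted p = 0.0329).

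The members of other cells gave no call in edgeR, and DESeq2 called Plat as higher in old KO than in young WT livers (1.17, adjusted p = 0.0482). F3, the gene of tissue factor, was at 4.3 ± 2.05, 3.58 ± 1.16 and 2.66 ± 0.54 CPM in young WT, old WT and old KO livers, and Plat, which encodes tissue plasminogen activator, at 0.435 ± 0.156, 0.62 ± 0.404 and 0.973 ± 0.534 CPM, with overlap in each comparison. Cfd, the adipocyte-made factor D that cleaves factor B, had 0 counts in the 5 young WT livers, 13 in old WT and 6 in old KO livers, highest in old WT 5 (0.268 CPM) and old KO 6 (0.186 CPM). An exact 2-sided permutation test of Cfd over libraries could not pass for age, because 7 of the 10 values were 0 (p = 0.167, the smallest these values allow), and gave p = 0.778 for genotype. The 5 adipocyte markers summed to 45.8 ± 42.8 CPM in young WT livers, to 5.16 ± 4.49 CPM in old WT livers and to 2.83 ± 1.72 CPM in old KO livers, nearly all of it Cidec, which fell with age (-3.21, adjusted p = 0.0036). Adipoq, Lep, Plin1 and Retn were at 0.239 CPM or lower in every library, and the part of these markers in the Cfd values was not tested.

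Other genes of the 2 systems were counted from lists. Of 33 further genes listed under complement, 29 were tested. With age 20.7% were called, near the 18.8% of all genes: 4 were higher, C1rl (0.31), Cd59a (0.35), the integrin chain Itgax (1.67) and Cpn1 (0.41), and 2 were lower, C1qtnf1 (-0.59) and Susd4 (-3.08). For genotype only Vsig4, a macrophage receptor for C3b counted among the markers above, was called, as lower. In old KO against young WT livers 5 were higher and 2 lower (24.1%, near the 23.3% of all genes), among them the pentraxin Apcs (0.82, adjusted p = 0.00409) and C7 (1.60, adjusted p = 0.0252), which stood at only 0.502 ± 0.132 and 1.52 ± 1.26 CPM.

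Of 36 further genes of coagulation and fibrinolysis, 32 were tested. With age 34.4% were called, beside 18.8% of all genes. The 9 that were higher included Serpina10 (0.67 ± 0.132, adjusted p = 0.00343) and Proz (0.54 ± 0.147, adjusted p = 0.0197), which encode an inhibitor of factor Xa and its cofactor protein Z, as well as Vkorc1 (0.33), the vitamin K reductase. The other 6 were F13a1 (1.96, at 0.191 and 0.742 CPM), Hgfac, Habp2, Pzp, Kng2 and Anxa2. The 2 that were lower were the endothelial receptor Thbd (-1.13 ± 0.273, from 6.49 ± 2.53 to 2.98 ± 0.197 CPM) and S100a10 (-0.58). None was called for genotype in edgeR, and DESeq2 called 1 (Serpine2). At an unadjusted p under 0.05 there were 5 of the 32 for genotype, beside 1661 of all 14258 genes. In old KO against young WT livers 10 were higher and 3 lower (40.6%, beside 23.3% of all genes).

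Some members share sequence with other genes. The exons of a readthrough gene, Gm20547, which had 0 counts in all libraries, cover 79.5% of the exon bases of Cfb and 40.8% of those of C2 on the same strand, and Cfb, the factor B of the alternative pathway, was at 2.4 ± 0.345, 2.44 ± 0.462 and 2.17 ± 0.406 CPM. Levels of Cfb and C2 are therefore uncertain and may leave out shared reads. Masp2 shares 54.9% of its exon bases with Tardbp on the opposite strand and Klkb1 shares 313 of 2982 exon bases with the abundant Cyp4v3 on the same strand, and the strand setting of the counting was not given. C4b, C1ra, C1s and Kng1 have close copies (C4a, C1rb, C1s2 and Kng2) among which reads can be split.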

How the data were processed

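Livers of 15 mice were profiled by stranded poly(A) RNA sequencing. The authors mapped single-end reads to mm9 with TopHat (TopHat2 2.0.11 in the submitters' processing notes) and counted reads per gene with HTSeq, and what they deposited are raw counts of reads, neither normalized nor pooled. The annotation and the strand setting of the counting are not given in the sources used here, so counts of overlapping genes and paralogs are uncertain. Groups and replicate numbers came from the sample titles, and each library was 1 mouse.

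Identifiers were matched to GENCODE M1 on NCBIM37, the build of mm9. Of 185 list entries, 180 matched by symbol, 4 by synonym and 1 did not. With edgeR 4.0.16 (R 4.3.3), library sizes were TMM-scaled and filterByExpr kept 14258 genes. One quasi-likelihood model (glmQLFit, glmQLFTest) of the 3 groups was fitted to all 15 libraries, with a common biological coefficient of variation of 0.189. P-values were adjusted by Benjamini-Hochberg over all tested genes at a threshold of 0.05. Where no tool is named beside an adjusted p, it is that of edgeR. SE is that of the fitted log2 fold change, and CPM uses TMM-scaled totals. CPM per kilobase divides by the union of annotated exons. Cfd, which failed the filter, was tested by exact permutation of log2 (CPM + 0.1).

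Every listed member is reported. Genes of 2 further pathway lists are named where called or where they are close copies. Members, lists and tests were chosen with earlier results of these data known, so no test over a list is given. The fit was tested before use on simulated data with log2 fold changes of 1 and 2 in either direction, of which 67% and 96% were called. Smaller changes, such as those of the members called with age, were not simulated. Alternatives were relative log expression and upper quartile scaling, no filter, at least 10 counts in every library, DESeq2 1.42.0, limma voom (limma 3.58.1), only the 10 libraries compared, a replicate block and each library left out.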

Additional observations from a re-analysis of the deposited data

Results flagged for a closer look

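In 9 of 146 groups of 5 libraries, 1 library stood far from the other 4, where chance flags about 1 in 20. Old KO 5 was high for 3 genes: C1ra at 169 CPM (others 130 to 138), C1s at 355 CPM (others 264 to 278) and C4bp at 521 CPM (others 386 to 396). Old WT 7 was low for Mbl1, at 104 CPM (others 140 to 150), and high for C2, at 27.3 CPM (others 21.9 to 22.4), and Pros1, at 92.4 CPM (others 53.8 to 58). In the remaining groups, C8a stood at 241 CPM in young WT 4 (others 109 to 131), Masp1 at 112 CPM in young WT 6 (others 148 to 158) and Serpinf2 at 528 CPM in old KO 6 (others 841 to 938). No explanation was tested.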

How the results depend on the processing

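The number of members called with age was 9, and it was 5 with no filter on low counts, 14 with DESeq2 and 3 with a replicate block (1 higher and 2 lower), and between 5 and 10 with 1 library left out. For genotype it was 4, and it was 1 with limma voom, 0 with the block and between 0 and 4 with 1 library left out. For old KO against young WT it was 24, and it was 15 with the block and between 11 and 25 with 1 library left out. The other alternatives gave counts within 1.5 times these. With only the 10 libraries compared, however, the 6 calls with age were 5 higher and 1 lower (C8a), and limma voom gave 9 higher and 1 lower (C8b). The block called Mbl2 as higher and C8b (-2.84, adjusted p = 0.012) and Pros1 as lower. The cause of these differences was not tested. Replicate numbers did not pair the samples, since deviations of same-numbered libraries correlated at -0.153 to 0.077. The block also takes young WT 3, old WT 7 and old WT 10, whose numbers occur in 1 group only, out of the comparison. Under the other 2 scalings all 294 group means of members moved by less than 1 SD, and the median fold change of all genes moved by less than 0.02. No called fold change changed sign under any alternative. With 5 mice per group, an uncalled member is not shown to be equal between groups, and Cfd, C5ar1, Plat and Cfb had few counts.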
